A study of Mus musculus with 2 samples.

Results

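The genes described here are 10 components of bone morphogenetic protein (BMP) signalling: the ligands Bmp2 and Bmp4, the antagonist Grem1, the receptors Bmpr1a and Bmpr2, and the response genes Id1, Id2, Id3, Smad6 and Smad7. They are 10 of the 32285 genes in the files, taken by symbol, and were picked because earlier results of these data showed higher Id1 and Grem1 and lower Bmp4 in knockout cells. Their cKO to WT ratios are therefore descriptions, given without a test and supporting nothing. The cKO library came from Prrx1-Cre+/-; Slc31a1flox/flox mice, which lack the copper importer SLC31A1 in cells of the limb mesenchymal lineage, where the Prrx1-Cre driver is active. The WT library came from Slc31a1flox/flox littermates without Cre, so both groups carried the floxed alleles, on a C57BL/6J background. Marrow from femurs and tibias was cultured without added drug or osteogenic induction, and the cells that adhered were captured. There was 1 library per genotype, so no test across samples exists, and intervals cover counting error only: differences between mice or cultures cannot be told apart from genotype. The labels used here give neither the age nor the number of mice.

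BMPs are secreted ligands that bring type I receptors such as BMPR1A together with the type II receptor BMPR2. The receptors phosphorylate SMAD1, SMAD5 and SMAD9, which enter the nucleus with SMAD4 and switch on a small set of direct targets, among them the Id genes and the inhibitory Smad6 and Smad7. ID proteins bind E proteins and block basic helix-loop-helix transcription factors, and in marrow stroma BMP signalling is known for driving osteoblast differentiation, which gremlin 1 restrains by binding the ligands.

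Where members of a pathway move together, their promoters are of interest, and 7 of the 10 members matched a window in the RefSeq promoter table (GRCm38.p6). Shown are 3 response genes, the antagonist and the ligand whose values the results turn on, each 5′ to 3′ on the gene's strand from 250 bases before the start to 10 bases after it. The windows are chr9:64022050-64022309 (minus strand) for Smad6, chr12:25096083-25096342 (minus) for Id2, chr4:136143572-136143831 (plus) for Id3, chr2:113758639-113758898 (minus) for Grem1 and chr14:46390660-46390919 (minus) for Bmp4. Capitals mark every match to either of 2 motifs that read the same on both strands and do not overlap here: GTCTAGAC, a palindrome bound by SMAD proteins, and GGCGCC, a GC-rich sequence of BMP-responsive elements.
Smad6: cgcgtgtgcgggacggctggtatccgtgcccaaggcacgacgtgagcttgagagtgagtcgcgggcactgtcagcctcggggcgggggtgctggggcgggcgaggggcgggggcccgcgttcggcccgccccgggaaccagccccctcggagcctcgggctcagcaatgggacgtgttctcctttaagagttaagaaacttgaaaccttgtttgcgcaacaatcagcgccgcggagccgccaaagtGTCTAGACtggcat
Id2: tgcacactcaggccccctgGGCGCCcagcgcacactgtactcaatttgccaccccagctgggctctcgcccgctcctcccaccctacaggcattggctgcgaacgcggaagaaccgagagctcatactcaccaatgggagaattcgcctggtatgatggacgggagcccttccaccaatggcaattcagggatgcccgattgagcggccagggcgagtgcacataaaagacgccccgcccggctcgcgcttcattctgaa
Id3: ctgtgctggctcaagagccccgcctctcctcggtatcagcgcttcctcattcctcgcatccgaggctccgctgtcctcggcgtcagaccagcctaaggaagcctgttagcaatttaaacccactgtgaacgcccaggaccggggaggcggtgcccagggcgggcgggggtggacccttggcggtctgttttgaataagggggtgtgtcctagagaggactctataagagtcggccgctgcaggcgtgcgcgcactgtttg
Grem1: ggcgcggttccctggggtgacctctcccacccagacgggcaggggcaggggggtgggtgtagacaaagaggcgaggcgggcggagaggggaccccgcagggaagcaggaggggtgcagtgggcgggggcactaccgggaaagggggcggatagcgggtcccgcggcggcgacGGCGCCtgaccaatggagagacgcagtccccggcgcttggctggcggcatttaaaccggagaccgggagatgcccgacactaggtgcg
Bmp4: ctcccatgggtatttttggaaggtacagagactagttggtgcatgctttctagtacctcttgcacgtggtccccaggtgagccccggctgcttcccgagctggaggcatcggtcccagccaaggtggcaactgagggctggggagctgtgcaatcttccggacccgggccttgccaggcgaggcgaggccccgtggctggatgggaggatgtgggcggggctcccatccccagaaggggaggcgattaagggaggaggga
The palindrome began 4 bases before the Smad6 start and was held by 0.177% of the 32851 windows of this length in the table. The GC-rich motif lay 231 bases before the Id2 start and 78 bases before the Grem1 start, and 9.96% of windows held it. Neither motif was in the Id3 or Bmp4 window. These matches describe the letters of the windows and are not measured binding sites.

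The barcodes held 126031142 UMIs over 6140 cells in cKO and 152398639 over 9125 in WT, and 11 barcodes occurred in both libraries. After filtering, 5263 cKO and 7637 WT cells were kept. The samples were labelled as mesenchymal stem cells, but only 1417 cKO cells (26.9%) and 3727 WT cells (48.8%) lay in clusters with mesenchymal markers, while 2528 and 2748 were macrophage-like. Most cKO mesenchymal-like cells lay in a deep cluster (826 cells, median 63925 UMIs) and most WT ones in a shallow cluster (1967 cells, median 5518 UMIs). Likewise, the largest macrophage-like cluster was cluster 3 in cKO (770 cells) and cluster 2 in WT (1096 cells). Slc31a1 was at 14.3 CPM (the summed UMIs of the gene scaled to a common library total) in cKO and 42.3 CPM in WT mesenchymal-like cells. In macrophage-like cells, at which Prrx1-Cre is not aimed, it was at 72.2 CPM in cKO and 70.0 CPM in WT. Prrx1, a transcription factor of limb mesenchyme, was at 449.7 CPM in cKO and 456.6 CPM in WT mesenchymal-like cells.

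In mesenchymal-like cells, the response genes and Grem1 were higher in cKO, Bmp4 and Bmp6 were lower, and the receptors and SMAD transducers differed little. Of the 10 members, 9 reached 10 CPM in either library. Id1 and Grem1 were at least 1.5-fold higher in cKO, and Bmp4 was at least 1.5-fold lower. Of the 8943 genes at that level, 0.581% were this much higher and 1.14% this much lower, and 1.72% were this far apart in either direction. Since the members were picked on this contrast, nothing is read from their count.

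Among the ligands, Bmp4 was at 10.8 CPM in cKO mesenchymal-like cells, against 22.1 CPM in WT, a ratio of 0.488 (95% interval 0.451 to 0.528). BMP4 is a potent inducer of cartilage and bone. Its gene lies at chr14:46383520-46390669 (minus strand, GRCm38, GENCODE M21) and overlaps Gm15217 and the antisense gene Gm15222 on the other strand, whose reads cannot be told apart from those of Bmp4 if counting ignored strand. Bmp2, another bone-inducing ligand, was at 2.09 CPM in cKO and 1.71 CPM in WT (174 and 177 UMIs), with a ratio of 1.22 (0.987 to 1.52), so no difference was detectable at this depth. Its UMIs were concentrated: cluster 19, led by the pericyte and smooth muscle genes Rgs5 and Myh11, held 53 of the 174 cKO UMIs in 20 cells and 26 of the 177 WT UMIs in 10 cells. There Bmp2 was at 81.3 CPM in cKO and 76.2 CPM in WT. Outside it, no mesenchymal-like cluster exceeded 2.59 CPM in cKO or 1.62 CPM in WT.

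Of the 13 ligand genes listed, 3 reached 10 CPM, and 2 of these were at least 1.5-fold lower in cKO, beside 1.14% of all genes at that level. Besides Bmp4, for which the genes were picked, this was Bmp6, a ligand that also signals iron status in the liver, at 5.33 CPM in cKO and 10.5 CPM in WT (ratio 0.506, 0.452 to 0.566). Bmp5 was at 21.7 CPM in cKO and 24.0 CPM in WT (ratio 0.902). The median log2 ratio of the 3 ligands was -0.87, beside -0.03 over all genes at that level. Bmp6 passed 10 CPM only through WT, where it was higher, and Bmp4 was picked as lower in cKO. Nothing is therefore read from the ligand count or from this median.

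Among the antagonists, Grem1 (chr2:113746164-113758646, minus strand), which encodes the secreted BMP-binding protein gremlin 1, was at 95.9 CPM in cKO mesenchymal-like cells and 63.4 CPM in WT (ratio 1.51, 1.46 to 1.56). Grem1 sits just past the 1.5-fold line: in cells with at least 20000 UMIs its ratio was 1.49, leaving Id1 as the only member above the line, beside 0.676% of genes. The receptor gene Acvr2a, with a ratio of 0.672, fell just short of being 1.5-fold lower. The other 8 of the 9 antagonists and modulators reported here at 10 CPM lay within 1.5-fold. Fst, encoding the activin and BMP binder follistatin, was at 63.6 CPM in cKO and 74.2 CPM in WT, Bmper at 17.6 and 21.3 CPM, and Nbl1, a DAN-family antagonist gene, at 33.7 and 26.5 CPM. The median log2 ratio of these 9 was 0.005, beside -0.03 over all genes.

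The receptors were close to equal. Bmpr1a, encoding a type I receptor, was at 110.0 CPM in cKO and 119.5 CPM in WT mesenchymal-like cells (ratio 0.921, 0.896 to 0.946). Bmpr2, encoding the type II receptor, was at 143 CPM in cKO and 158 CPM in WT (ratio 0.903, 0.881 to 0.924). None of the 6 receptor-list genes at 10 CPM was 1.5-fold apart, and 5 of the 6 were lower in cKO, where 58.6% of all genes were. The lowest ratio was that of Acvr2a, an activin and BMP type II receptor gene, at 22.5 CPM in cKO and 33.6 CPM in WT. The 5 transducer genes at 10 CPM also lay within 1.5-fold, with Smad1 at 69.9 CPM in cKO and 71.5 CPM in WT and Smad5 at 43.7 and 43.6 CPM.

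Among the response genes, Id1 (chr2:152736251-152737410, plus strand) was at 43.4 CPM in cKO mesenchymal-like cells, against 17.3 CPM in WT (ratio 2.50, 2.37 to 2.65). A higher ratio was found for 4 of the 8943 genes, a rank from which nothing is read, since Id1 was picked on this contrast. Id3 was at 414 CPM in cKO and 297.5 CPM in WT (ratio 1.39, 1.37 to 1.41). Id2 was at 61.0 CPM in cKO and 48.0 CPM in WT (ratio 1.27, 1.22 to 1.32). The inhibitory SMAD genes, whose products damp BMP and TGF-beta receptors, differed by similar amounts. Smad6 was at 81.6 CPM in cKO and 64.9 CPM in WT (ratio 1.26, 1.22 to 1.30), and Smad7 at 105 CPM in cKO and 79.2 CPM in WT (ratio 1.33, 1.29 to 1.37). Outside the members, Atoh8, a basic helix-loop-helix gene induced by BMP signalling, was at 18.1 CPM in cKO and 10.1 CPM in WT (ratio 1.78, 1.65 to 1.93).

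All 8 of the 11 listed response genes that reached 10 CPM were higher in cKO, beside 41.4% of all genes, with a median log2 ratio of 0.37. Only Id1 and Atoh8 were at least 1.5-fold higher. Id1 was picked as higher on this contrast, and other members were picked with it, so nothing is read from these counts or the median. The 3 E protein genes, whose products ID proteins bind, lay within 1.5-fold (median log2 ratio 0.01). Other stimulus-response lists moved in the same direction to differing degrees: 6 of 8 TGF-beta response genes (median 0.18) and 10 of 12 immediate early genes (median 0.41) were higher in cKO. The leading immediate early genes were Egr3, at 13.8 CPM in cKO and 6.82 CPM in WT, and Nr4a1, at 14.2 CPM in cKO and 7.42 CPM in WT. Both passed 10 CPM only through cKO, where they were higher, so nothing is read from how far apart they were. The part of immediate early expression in the response-gene values was not tested.

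**Figure D1:**
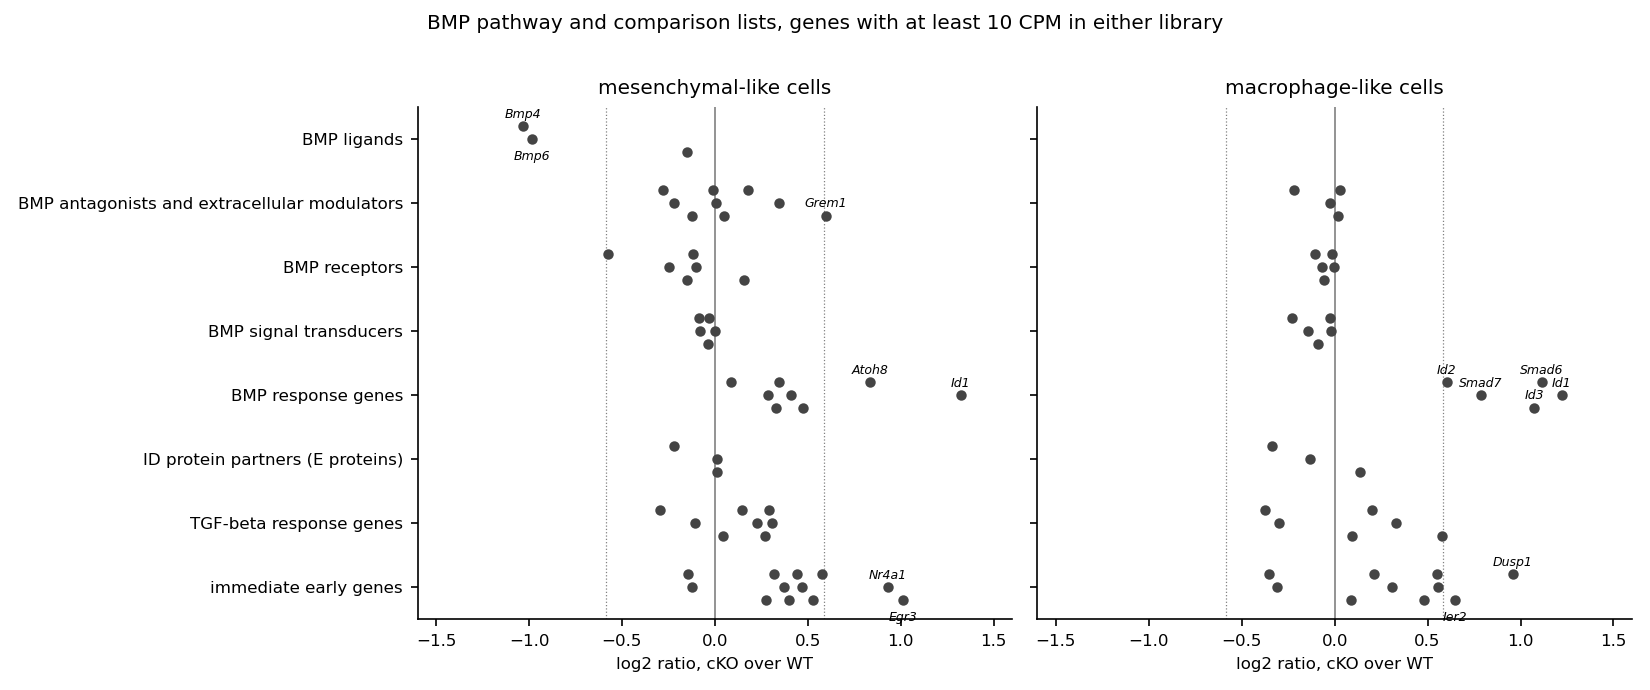
Log2 ratio of cKO over WT (x axis) for each listed gene with at least 10 CPM in either library, by list, in mesenchymal-like cells (left) and macrophage-like cells (right); each point is 1 gene, dotted lines mark 1.5-fold, and genes past them are named. In mesenchymal-like cells Id1, Atoh8 and Grem1 lie past the upper line among BMP genes and Bmp4 and Bmp6 past the lower, while in macrophage-like cells 5 response genes lie past the upper line.

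The mesenchymal-like cells were re-clustered, and 4 subclusters had at least 100 cells in each library. Subcluster 3 (cycling-like) had 9 cycling markers above the naming threshold, 5 of them among its 10 leading genes. Subcluster 4 (pre-osteoblast-like) had only 4 of its listed markers above it and 1, Ibsp, among the leading genes, so this name rests on part of its list. Subcluster 1 was unnamed and led by H19 and Cxcl14, and subcluster 0 was unnamed, shallow and led by Ltf and macrophage genes. Id1 was higher in cKO in all 4, as were 51.7%, 51.6%, 47.9% and 44.2% of genes in subclusters 0, 1, 3 and 4. It was at 66.5 CPM in cKO and 19.3 CPM in WT in subcluster 0, and at 46.9 and 18.4 CPM in subcluster 1. In cycling-like cells it was at 54.2 CPM in cKO and 20.8 CPM in WT, and in pre-osteoblast-like cells at 23.6 and 8.76 CPM. Pre-osteoblast-like cells thus held the lowest Id1 of the 4 in both libraries, and there the ratio was 2.69 (2.25 to 3.25).

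Id3, Smad6 and Smad7 were also higher in cKO in each of these 4 subclusters, by ratios of 1.33 to 1.74, 1.26 to 1.55 and 1.30 to 1.51. Id2 ratios ran from 1.40 to 1.66, above the value over the whole class (1.27). Id2 in subcluster 0, at 181 CPM in cKO and 109 CPM in WT, stood above the other 3 subclusters, at 48.2 to 65.2 CPM in cKO and 32.0 to 46.6 CPM in WT. Subcluster 0 also held more macrophage marker UMIs, summed over 9 markers of which none was at 0: 0.128% of UMIs in cKO and 0.140% in WT, against 0.0132% to 0.0155% in cKO and 0.0197% to 0.0203% in WT in the other 3. It made up 181 cKO and 1055 WT cells. The part of these in the lower Id2 ratio over the whole class was not tested.

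Grem1 was highest in pre-osteoblast-like cells, at 116 CPM in cKO and 75.3 CPM in WT, and was at 78.7 CPM in cKO and 58.9 CPM in WT in subcluster 1. In subcluster 0, at 77.0 CPM in cKO and 67.1 CPM in WT, the interval of its ratio reached 1 (1.15, 0.992 to 1.32). Bmp4 was lower in cKO in all 4, as were 48.3%, 48.4%, 52.1% and 55.8% of genes, most so in subcluster 1, at 11.4 CPM in cKO and 28.2 CPM in WT (ratio 0.403). In cycling-like cells it was at 10.1 CPM in cKO and 15.6 CPM in WT (ratio 0.648). A further shallow subcluster, with 39 cKO and 936 WT cells, went the other way for Bmp4: 71.4 CPM in cKO (47 UMIs) and 17.2 CPM in WT (84 UMIs). Of its macrophage markers none was at 0, and they summed to 0.0961% of UMIs in cKO and 0.0940% in WT. The receptors stayed near equal throughout the 4 larger subclusters, with ratios of 0.863 to 0.975 for Bmpr1a and 0.880 to 1.00 for Bmpr2.

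Macrophage-like cells, at which the Cre driver is not aimed, held the same direction for the response genes. Id1 was at 128 CPM in cKO macrophage-like cells and 55.0 CPM in WT (ratio 2.33, 2.19 to 2.48). Id2, which these cells carried at a higher level than mesenchymal-like cells, was at 871 CPM in cKO and 573 CPM in WT (ratio 1.52, 1.49 to 1.55). Id3 was at 244 CPM in cKO and 116 CPM in WT (ratio 2.10, 2.02 to 2.20). Smad6 was at 59.9 CPM in cKO and 27.6 CPM in WT (ratio 2.17, 1.99 to 2.37), and Smad7 at 60.8 and 35.3 CPM (ratio 1.72, 1.59 to 1.87).

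Of the 6 members at 10 CPM in macrophage-like cells, 5 were at least 1.5-fold higher in cKO, beside 0.666% of 8865 genes, and all 5 are response genes. None was 1.5-fold lower, beside 1.03% of genes. Bmpr2, the remaining one, was at 119.7 CPM in cKO and 125.5 CPM in WT (ratio 0.954, 0.908 to 1.00). In macrophage-like cells 4 genes had a higher ratio than Id1, 6 a higher one than Smad6 and 9 a higher one than Id3. Nothing is read from the rank of Id1 or from the count of members, since Id1 was picked as higher in knockout cells. Immediate early genes were again higher (8 of 10, beside 45.3% of all genes, median log2 ratio 0.39), with Dusp1 at 38.5 CPM in cKO and 19.8 CPM in WT. The response genes were also higher in cKO within macrophage-like clusters 2, 3, 4 and 5. Of the members at 10 CPM, 5 of 6, 5 of 9, 4 of 6 and 4 of 6 were at least 1.5-fold higher, beside 1.29%, 3.13%, 0.818% and 1.08% of genes. Each of these counts includes the picked Id1, so nothing is read from them. In cluster 3, 4 of the 5 were response genes and 1 was Grem1, also picked as higher. There 1 ligand was at least 1.5-fold lower, beside 5.17% of genes. In clusters 2, 3, 4 and 5 the Id1 ratios were 2.49, 1.76, 2.19 and 2.32, and those of Id3 were 2.31, 1.66, 2.10 and 2.04. In the small cluster 12 (74 cKO and 72 WT cells) the Id1 ratio was 1.27 (0.725 to 2.21) and that of Smad7 was 0.604 (0.190 to 1.67), from 6 and 14 UMIs.

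Set against each other, the cKO to WT ratio of Id1 in mesenchymal-like cells was 1.07 times that in macrophage-like cells, with an interval that reached 1 (0.989 to 1.17). The ratios of Id2, Id3, Smad6 and Smad7 were smaller in mesenchymal-like cells, by factors of 0.836 (0.80 to 0.874), 0.661 (0.632 to 0.692), 0.580 (0.529 to 0.636) and 0.770 (0.707 to 0.839). A difference between the whole libraries and one of genotype in both cell types cannot be told apart here. Grem1 in macrophage-like cells was at 7.24 CPM in cKO and 4.31 CPM in WT, and Bmp4 had 16 UMIs in cKO and 46 in WT. Bmp2 there was at 3.49 CPM in cKO and 4.74 CPM in WT (ratio 0.735, 0.552 to 0.973). In the same cells the 10 mesenchymal markers summed to 0.0962% of UMIs in cKO and 0.111% in WT, none of them at 0, against 1.38% and 1.53% in mesenchymal-like cells. Their part in these low Grem1 and Bmp4 values was not tested.

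**Figure D2:**
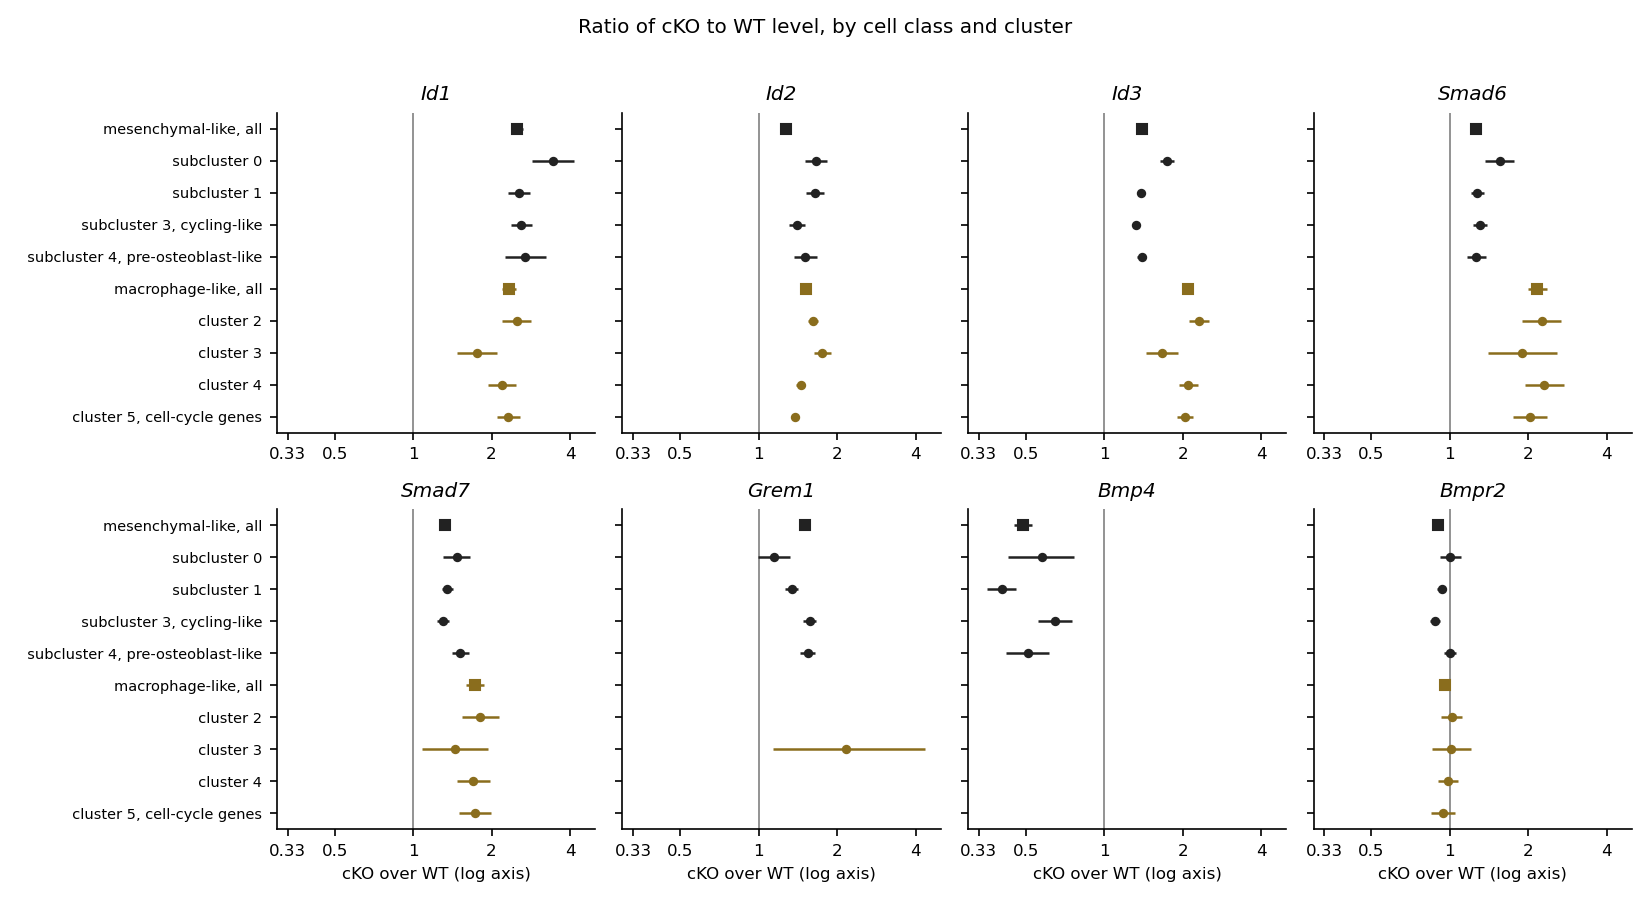
Ratio of cKO over WT level (log axis) for 8 members, in all mesenchymal-like cells and 4 subclusters (black) and in all macrophage-like cells and 4 clusters (ochre), where the gene reached 10 CPM; bars are 95% intervals of counting error. Id1, Id2, Id3, Smad6 and Smad7 lie right of 1 in every row, Bmp4 left of 1 in the mesenchymal-like rows, and Bmpr2 near 1.

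Endothelial-like cells (86 in cKO, 123 in WT) held the highest Id1, Id3, Smad6 and Bmpr2 of the named classes in both libraries. Id1 was at 503 CPM in cKO and 475 CPM in WT, a ratio of 1.06 (0.985 to 1.14), and Id3 was at 477 and 430.4 CPM (ratio 1.11). Smad6 was at 428 CPM in cKO and 153 CPM in WT (ratio 2.80, 2.52 to 3.12), and Smad7 at 303 CPM in cKO and 201 CPM in WT (ratio 1.51). Id2 was at 77.3 CPM in cKO and 56.0 CPM in WT (ratio 1.38, 1.13 to 1.69), and differences between these ratios were not tested. Bmp4 was at 76.2 CPM in cKO and 44.1 CPM in WT endothelial-like cells, and Bmp6 at 50.6 and 21.0 CPM, both opposite in direction to mesenchymal-like cells. Prrx1, a mesenchymal marker, was at 87.6 CPM in cKO and 24.1 CPM in WT there, and the 10 mesenchymal markers summed to 0.241% and 0.134% of UMIs with 1 of them at 0 in each. Their part in the endothelial values was not tested.

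In the smaller classes, Id1 in cluster 9, which held dendritic markers but was led by the basophil genes Prss34 and Mcpt8 and stays unnamed, was at 90.5 CPM in cKO and 34.6 CPM in WT (ratio 2.61, 1.86 to 3.73). In neutrophil-like cells Id1 was at 69.5 CPM in cKO and 54.6 CPM in WT (ratio 1.27, 1.03 to 1.58). Id2 there was at 380 CPM in cKO and 288 CPM in WT, and Smad7 at 33.2 and 30.3 CPM. Id3 (17.3 and 19.3 CPM) and Smad6 (2.35 and 3.54 CPM) were lower in cKO, with overlapping intervals, as they were for Smad7. Osteoclast-like cells (82 in cKO, 32 in WT) had Id3 at 113 CPM in cKO and 26.5 CPM in WT, from 198 and 18 UMIs. There the 10 mesenchymal markers summed to 0.233% of UMIs in cKO (1 at 0) and 0.0539% in WT (2 at 0), and their part in the Id3 values was not tested. T or NK cell-like cells had high Id2, at 830 CPM in cKO (180 UMIs) and 1032 CPM in WT (248 UMIs). Their Id1 was at 4.61 CPM in cKO and 20.8 CPM in WT, with overlapping intervals.

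The order of levels over the 8 classes differed between genes. For Id1 in cKO it ran from endothelial-like over macrophage-like, cluster 9, neutrophil-like and mesenchymal-like to osteoclast-like cells, and only cluster 9 and neutrophil-like cells had overlapping intervals among these neighbours. In WT macrophage-like and neutrophil-like cells (55.0 and 54.6 CPM) did not differ beyond counting error. Grem1 and Bmpr1a were highest in mesenchymal-like cells in both libraries, and Bmp4 was highest in endothelial-like cells in both.

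**Figure D3:**
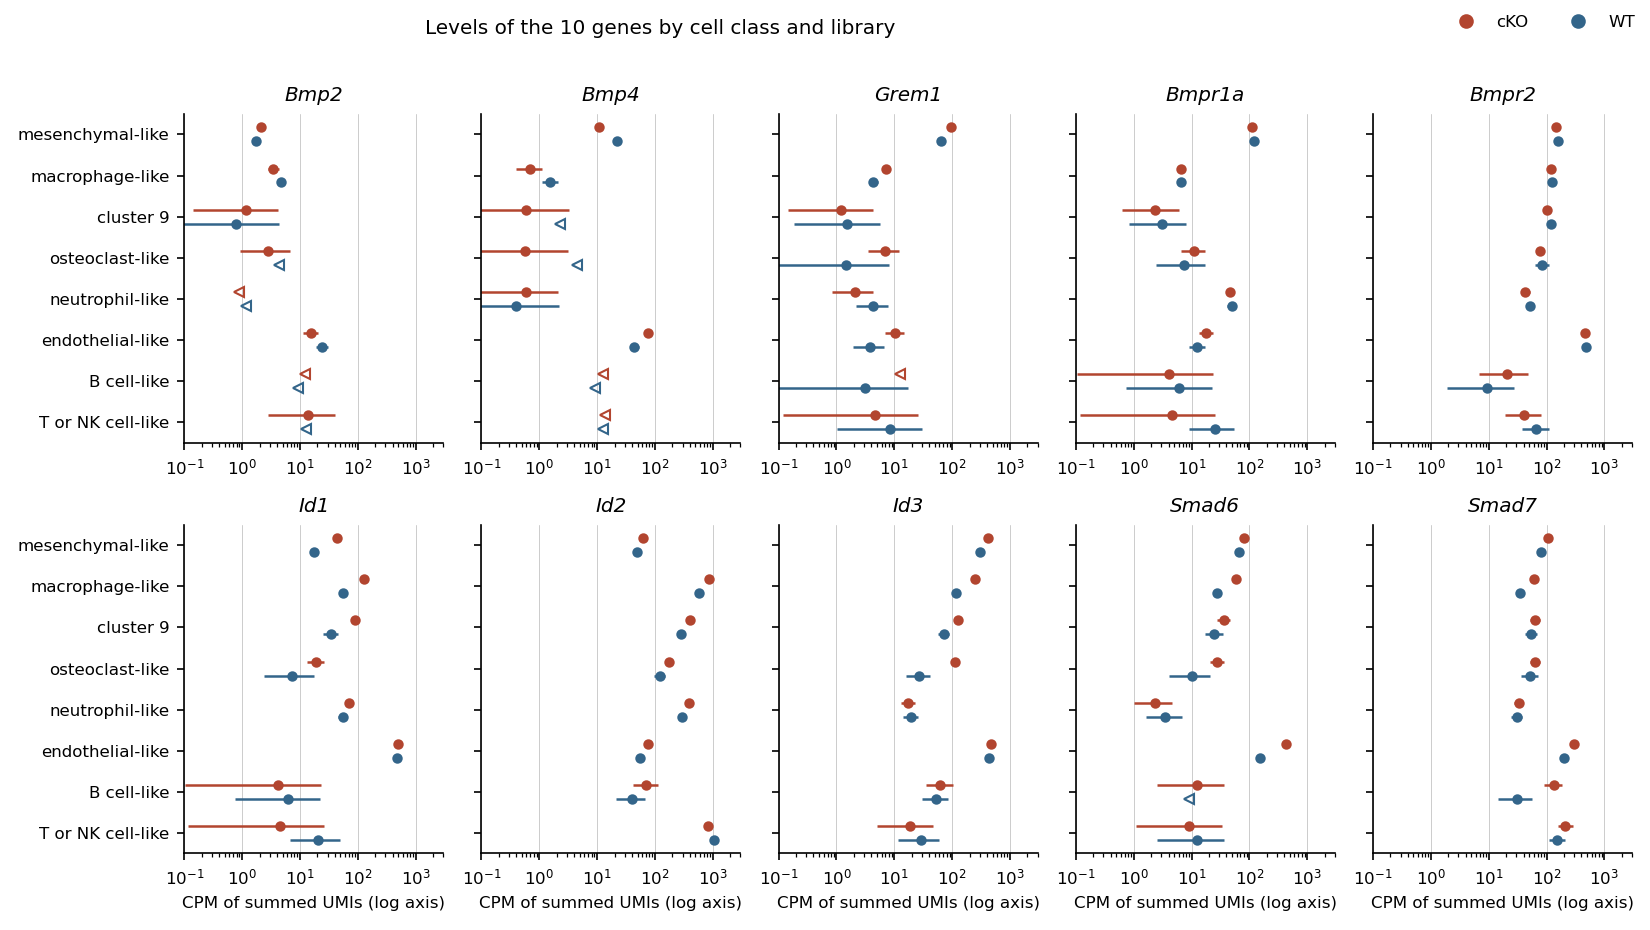
Level of each of the 10 genes (CPM of summed UMIs, log axis) in 8 cell classes, cKO in red above WT in blue, with exact 95% Poisson intervals; open triangles mark classes with 0 UMIs, drawn at the level of 3 UMIs, and lines cut by the left edge go on below 0.1 CPM. Response genes are higher in cKO in the mesenchymal-like and macrophage-like rows, and Bmp4 is lower in the mesenchymal-like row and higher in the endothelial-like row.

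Shares of cells were compared at 1 depth. Each mesenchymal-like cell was thinned to 20000 UMIs, which left 1137 cKO cells (280 shallower cells left out) and 1683 WT cells (2044 left out). Id1 had a UMI in 41.8% of cKO cells (38.9% to 44.7%), against 21.3% of WT cells (19.3% to 23.3%). Without thinning the shares were 57.9% in cKO and 22.8% in WT. The difference ran through the counts per cell: 20.2% of cKO cells and 6.24% of WT cells had at least 2 Id1 UMIs, and the mean among cells with a UMI was 2.12 in cKO and 1.56 in WT. Id3 was near saturation, with a UMI in 96.8% of cKO and 93.3% of WT cells, but 59.8% of cKO cells and 43.7% of WT cells had 6 or more.

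Grem1 had a UMI in 56.6% of cKO cells and 48.2% of WT cells, and 9.24% of cKO cells and 4.40% of WT cells had 6 or more. Bmp4 had a UMI in 12.8% of cKO cells (10.9% to 14.8%) and 19.1% of WT cells (17.2% to 21.0%). Atoh8 had a UMI in 25.2% of cKO cells and 15.8% of WT cells, and Bmp6 in 8.0% of cKO cells and 12.4% of WT cells. As a background, at 5000 UMIs per cell Grem1 had a UMI in 1.05% of cKO and 1.79% of WT neutrophil-like cells, against 27.2% and 23.2% of mesenchymal-like cells. At that depth Bmp4 had a UMI in 0.243% of cKO and 0.863% of WT macrophage-like cells, against 4.49% and 9.04% of mesenchymal-like cells. Median depths before this thinning were 10306 UMIs in cKO and 9397 in WT neutrophil-like cells, 11370 and 12001.5 in macrophage-like cells, and 65328.5 and 35598 in mesenchymal-like cells. Median depths before thinning were 69007 UMIs in cKO and 51676 in WT for the mesenchymal-like cells kept at 20000.

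**Figure D4:**
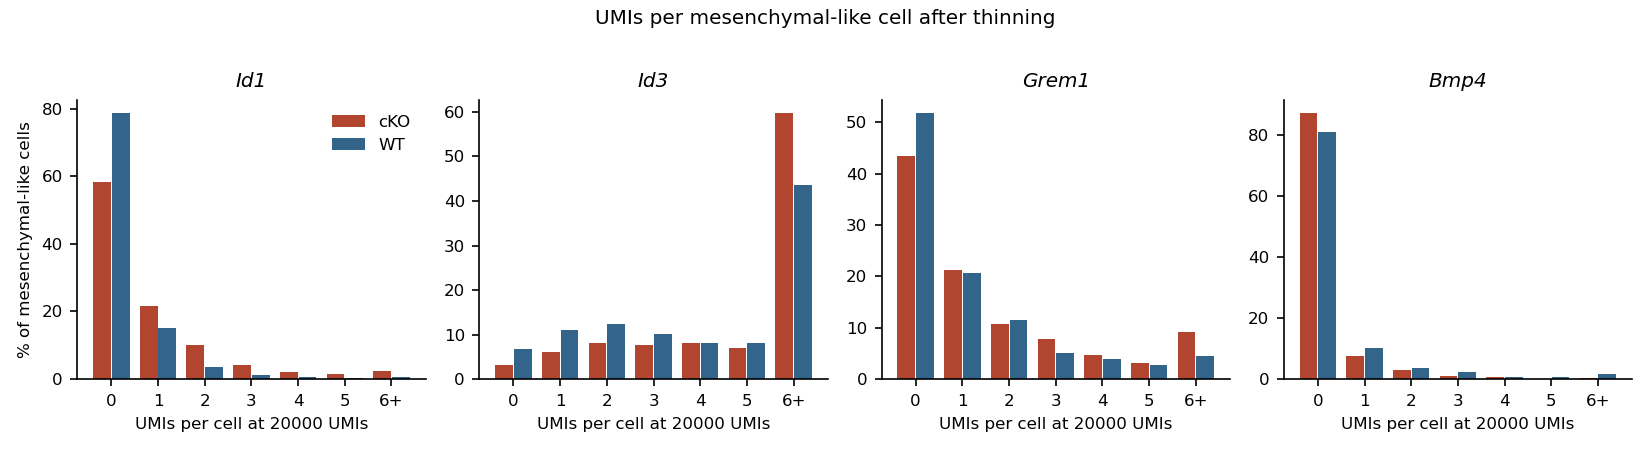
Percentage of mesenchymal-like cells (y axis) by the number of UMIs of Id1, Id3, Grem1 and Bmp4 in the cell after thinning to 20000 UMIs (x axis), cKO in red (1137 cells) left of WT in blue (1683 cells). Fewer cKO cells had no Id1 UMI (58.2% against 78.7%), and more had no Bmp4 UMI (87.2% against 80.9%).

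UMIs of all of Id1, Id2 and Id3 occurred together in 305 of the 1137 thinned cKO mesenchymal-like cells (26.8%, 24.3% to 29.5%) and in 193 of the 1683 WT cells (11.5%, 9.98% to 13.1%). Cells with none of the 3 made up 1.32% in cKO and 3.98% in WT. The products of the single shares were 24.5% in cKO, inside the interval of the observed share, and 9.89% in WT, just below it. With Id3 in nearly all cells, this comparison could show little, and nothing is read from it about independence of the genes. In cells with Id3, Id1 was found in 42.5% in cKO (39.6% to 45.5%) and 22.2% in WT (20.2% to 24.4%). In cells without Id3, it was found in 19.4% of 36 cKO cells (8.19% to 36.0%) and 7.97% of 113 WT cells (3.71% to 14.6%). Id1 and Atoh8 occurred together in 12.1% of cKO cells (10.3% to 14.2%), with a product of 10.5%, and in 4.93% of WT cells (3.95% to 6.08%), with a product of 3.36%. For Id1 with Grem1 and for Grem1 with Bmp4 the product lay inside the interval in both libraries. Grem1 was found in 46.9% of cKO cells with Bmp4 and 58.0% of those without, and in 42.1% and 49.6% in WT, with overlapping intervals. At 10000 UMIs these shares were 38.6% and 42.7% in cKO and 33.1% and 33.9% in WT. Cells of 1 library are not replicates, and these shares describe the libraries.

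Co-detection was also higher in cKO within subclusters. All 3 Id genes were found in 23.3% of cKO and 9.69% of WT cells of subcluster 1, in 29.7% and 14.5% of cycling-like cells, and in 16.0% and 7.84% of pre-osteoblast-like cells. In macrophage-like cells thinned to 5000 UMIs, all 3 occurred in 24.1% of 1648 cKO cells and 9.30% of 2086 WT cells. There Id1 had a UMI in 38.9% of cKO and 19.6% of WT cells, Id3 in 63.0% and 38.9%, and Smad6 in 24.3% and 11.6%. The product of the single shares was 23.0% in cKO macrophage-like cells, inside the interval of the observed share (22.0% to 26.2%), and 6.41% in WT, below it (8.09% to 10.6%).

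**Figure D5:**
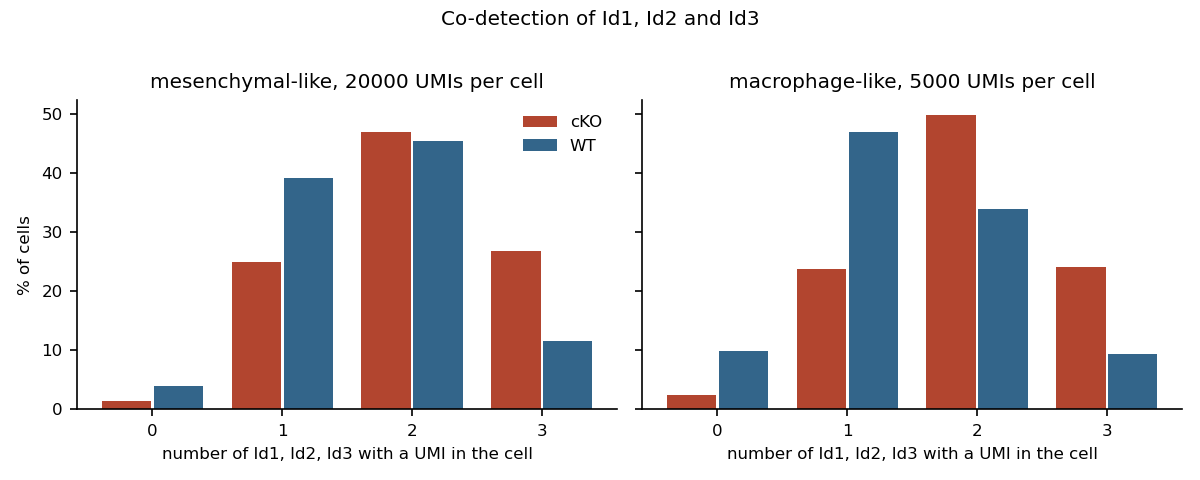
Percentage of cells (y axis) with UMIs of 0, 1, 2 or 3 of Id1, Id2 and Id3 (x axis), in mesenchymal-like cells thinned to 20000 UMIs (left) and macrophage-like cells thinned to 5000 (right), cKO in red left of WT in blue. All 3 genes were found in 26.8% of cKO and 11.5% of WT mesenchymal-like cells, and in 24.1% and 9.30% of macrophage-like cells.

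The genes with the most similar pattern were sought over 16 points: 4 classes and 4 subclusters in each library. The search covered 6056 genes with at least 50 CPM at any point. The classes were mesenchymal-like, macrophage-like and neutrophil-like cells and the unnamed cluster led by Prss34 and Mcpt8. Endothelial-like cells, which held the highest Id1 and Bmp4 of the classes in both libraries, were not among the points. The nearest genes therefore do not cover endothelial-like cells. The points share 2 libraries, and the subclusters are parts of a class, so the correlations of log2(CPM + 1) are descriptions. Nearest to Id1 were Ppp4c (Pearson's r 0.909), Cd44 (0.833) and Dusp6 (0.815), and the nearest member was Id2 (0.792). The other response genes among the members had negative r to Id1: Id3 -0.277, Smad6 -0.275 and Smad7 -0.206. So did Grem1 (-0.554), Bmpr1a (-0.561) and Bmpr2 (-0.427). Ppp4c encodes a catalytic phosphatase subunit, Cd44 a hyaluronan receptor and Dusp6 a phosphatase of ERK. Nearest to Grem1 were Timp1 and Fgf7 (both 0.992) and Dpysl3 (0.991), and nearest to Bmp4 were Gulp1 (0.984), Pdgfd (0.980) and Fhl1 (0.972). Over these points Grem1 and Bmp4 correlated with each other (0.918), and both were high in mesenchymal-like and low in blood cells. Between the libraries, however, Grem1 and Bmp4 differed in opposite directions in mesenchymal-like cells. Gulp1, like Bmp4, was lower in cKO mesenchymal-like cells, at 78.5 CPM in cKO and 120.5 CPM in WT.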

How the data were processed

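The values used were the deposited UMI counts, whole numbers with no normalization by the authors, for 1 cKO and 1 WT library (10x Genomics 3' v3). Per the file headers they came from Cell Ranger 7.1.0, and no barcode in the files held under 500 UMIs. The submitters' processing notes name mm10 and GRCm38 as builds, and Seurat as a further tool. The sources do not say if introns or strand entered the counting. No cell annotation was used, so cell classes were rebuilt.

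Barcodes under 500 genes or 1000 UMIs, or over 15% mitochondrial, were dropped, which left 5506 cKO and 8171 WT cells. Scrublet's automatic threshold marked 2 cells per library and had not worked, so the highest-scoring 243 cKO and 534 WT cells (0.8% per 1000 cells) were removed. Cells were clustered with scanpy 1.11.5 and leidenalg 0.10.2 (2000 variable genes, 30 components, 15 neighbours, resolution 0.5) and named where at least 3 markers were 2-fold (subclusters 1.5-fold) above the mean of clusters. UMIs were summed per library and class and given as CPM. Levels have exact Poisson intervals, ratios exact conditional binomial intervals and shares exact Clopper-Pearson intervals, all at 95%. Median log2 ratios used a prior of 1 CPM, while ratios of single genes and the fold thresholds used none. The ratio step was tested on simulated data.

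The members, lists and tests were chosen with earlier results of these data known. Named were the members, Slc31a1, Prrx1, list genes with at least 10 CPM in mesenchymal-like cells (those 1.5-fold apart first, otherwise up to 4 per list with the largest log2 ratios) and the 3 genes nearest to Id1, Grem1 and Bmp4. Genes that describe clusters, Smad1, Smad5 and Bmp5, and Dusp1 in macrophage-like cells were chosen after their values were seen. Promoters were cut from the RefSeq table. Alternatives covered the cell filter, doublets, resolution, cell class, depth, weighting, scaling, thinning, the floor and the fold threshold. A gene of the antagonist list is not reported here, and the list's counts and median leave it out.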

Additional observations from a re-analysis of the deposited data

Results flagged for a closer look

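Id2 in T or NK cell-like cells went against its direction in mesenchymal-like cells: its cKO to WT ratio was 0.804 (0.660 to 0.978), from 180 UMIs in 38 cKO cells and 248 in 47 WT cells, beside 1.27 in mesenchymal-like cells. The difference between the classes was not tested.

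Bmp4 in endothelial-like cells had a cKO to WT ratio of 1.73 (1.39 to 2.15), from 220 UMIs in 86 cKO cells and 141 in 123 WT cells, beside 0.488 in mesenchymal-like cells. The difference was not tested.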

How the results depend on the processing

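The 3 members 1.5-fold apart in mesenchymal-like cells kept their direction under all 9 alternatives: Id1 stayed between 2.16 and 2.55, Grem1 between 1.49 and 1.54 and Bmp4 between 0.472 and 0.545. In macrophage-like cells, counted without a floor, 6 of the 10 members were at least 1.5-fold higher in cKO and 1 lower under all 7 alternatives. Of these, Grem1 was below 10 CPM, as was the lower one, Bmp4, at 0.689 CPM in cKO and 1.55 CPM in WT. Of all genes at 10 CPM, 0.666% were this much higher and 1.03% this much lower, and no share without a floor is given. The counts include the picked Id1, Grem1 and Bmp4, so nothing is read from them. In mesenchymal-like cells the count of members at least 1.5-fold higher, 2 as reported, was 1 in cells with at least 20000 UMIs and 4 with each cell weighted equally, where Id3 had a ratio of 1.69 and Bmp2 of 1.55. The share of cells with all of Id1, Id2 and Id3 depends on depth by construction: 13.4% in cKO and 5.63% in WT at 10000 UMIs, and 51.7% and 15.7% without thinning. Of the 31 genes at 10 CPM in the 5 BMP lists, 3 were 1.5-fold higher and 2 lower as reported, 1 and 1 at 2-fold, and 8 were higher at a lower fold threshold. With other floors the number of genes changed too: 6 higher and 5 lower of 50 with no floor, and 1 and 0 of 15 at a floor of 50 CPM. The 1.5-fold counts at 10 CPM include the picked Id1, Grem1 and Bmp4, and no share of all genes is given for the other settings. These list counts follow the settings and show no change in the lists. No paired analysis was possible because each genotype has 1 library. With 1 library per genotype, counting intervals understate the error, and classes under 100 cells rest on few UMIs.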
